A study of Mus musculus with 2 samples.

Results

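The VEGF and angiopoietin genes were followed through 2 single-cell libraries of the newborn mouse lung. The 10 genes, Vegfa, Vegfb, Vegfc, Kdr, Flt1, Flt4, Angpt1, Angpt2, Tek and Tie1, were taken by name from the 29004 features of the deposited matrices, and all 10 were found. One library came from pups given 5E1, an antibody that blocks Hedgehog ligands, and the other from pups given control IgG. All pups of both groups carried Gli1CreERT2/+ and R26RtdT/+, so 1 Gli1 allele is disrupted by the inducible Cre in the control lungs too. Tamoxifen was injected on postnatal day 1, antibody on day 3, and lungs were collected on day 6. Lungs of 3 pups were pooled per condition, so each condition is 1 library and no difference below has a replicate or a p-value. Whole lung cells were loaded without sorting and read from the 3′ end of transcripts.

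VEGF ligands act on endothelial receptor kinases. VEGF-A signals mainly through VEGFR2, made from Kdr, while VEGFR1, made from Flt1, binds VEGF-A, VEGF-B and placental growth factor tightly and has a soluble form that holds ligand back. VEGF-C acts on VEGFR3, made from Flt4, which is known from lymphatic vessels. Angiopoietin 1, made by pericytes and other mesenchymal cells, activates the receptor TIE2, made from Tek, angiopoietin 2 can oppose it, and TIE1 is a partner of TIE2 with no clear ligand of its own. In the growing alveolus, AT1 cells, the flat cells of gas exchange, are a known source of VEGF-A for the capillaries beside them. Counting of 3′ ends does not separate the soluble from the membrane form of Flt1, nor the isoforms of Vegfa.

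Transcripts were counted by unique molecular identifiers (UMIs), 58890639 of them in 9454 annotated cells of the 5E1 library and 77436890 in 13509 annotated cells of the IgG library. Levels are UMIs of a gene per 1000000 UMIs of a library or cluster (CPM). Values in parentheses after a level, share or ratio are exact 95% intervals for counting error only. Because transcript length and capture differ between genes, levels are compared within a gene. Ptch1, a direct Hedgehog target, was at 14.5 CPM in the 5E1 library and 47.1 CPM in the IgG library, and Hhip was at 11.9 CPM with 5E1 and 85.0 CPM with IgG. Of the kept barcodes, 184 occur in both libraries, and they were not removed. The pools also differed in sex-linked transcripts: 32.7% of 5E1 cells and 0.0296% of IgG cells had a UMI of a Y-linked gene. Cells with a UMI of Xist and none of a Y-linked gene were 24.2% of the 5E1 library and 91.5% of the IgG library. The authors' 23 clusters carry no names. A cluster was called like a cell type where at least 3 markers of 1 list were among its 20 leading genes and no other list had as many as 2, the lists of endothelial subsets left aside. By this rule cluster 11 was endothelial-like, with 9 of 15 markers among those genes and 2 lymphatic endothelial markers besides, cluster 15 AT1-like with 8 of 11, cluster 9 AT2-like with 7 of 10 and cluster 13 pericyte-like with 6 of 13. Clusters 3, 10, 12, 14 and 22 kept their numbers.

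The receptor promoters are shown because Kdr, Flt1, Tek and Tie1 had their highest level in 1 and the same cluster, while Tek and Kdr lay on opposite sides of an equal level in the comparison of libraries. The windows run from 250 bases before to 50 after the start (RefSeq, GRCm38.p6), with Kdr at chr5:75978406-75978705 (minus strand), Flt1 at chr5:147725962-147726261 (minus), Tek at chr4:94739039-94739338 (plus) and Tie1 at chr4:118489800-118490099 (minus). Capitals mark GGAA or its reverse complement TTCC, the core that ETS factors bind.
Kdr: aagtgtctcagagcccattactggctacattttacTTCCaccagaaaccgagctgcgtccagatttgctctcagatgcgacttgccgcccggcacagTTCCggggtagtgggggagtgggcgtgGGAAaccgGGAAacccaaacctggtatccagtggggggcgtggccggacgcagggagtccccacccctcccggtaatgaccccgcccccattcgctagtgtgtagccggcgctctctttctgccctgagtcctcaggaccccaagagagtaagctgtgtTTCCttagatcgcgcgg
Flt1: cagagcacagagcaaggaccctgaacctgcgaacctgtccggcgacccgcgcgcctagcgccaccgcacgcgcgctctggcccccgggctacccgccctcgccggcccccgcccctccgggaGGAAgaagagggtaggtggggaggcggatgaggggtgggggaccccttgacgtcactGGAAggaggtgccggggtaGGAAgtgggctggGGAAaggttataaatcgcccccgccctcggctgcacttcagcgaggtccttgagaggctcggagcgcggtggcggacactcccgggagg
Tek: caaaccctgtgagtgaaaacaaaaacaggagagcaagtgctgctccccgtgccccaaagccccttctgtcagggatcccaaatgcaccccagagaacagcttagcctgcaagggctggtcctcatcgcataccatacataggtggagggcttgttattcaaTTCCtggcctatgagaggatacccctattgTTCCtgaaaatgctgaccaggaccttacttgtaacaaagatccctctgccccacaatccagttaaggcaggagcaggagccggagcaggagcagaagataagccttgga
Tie1: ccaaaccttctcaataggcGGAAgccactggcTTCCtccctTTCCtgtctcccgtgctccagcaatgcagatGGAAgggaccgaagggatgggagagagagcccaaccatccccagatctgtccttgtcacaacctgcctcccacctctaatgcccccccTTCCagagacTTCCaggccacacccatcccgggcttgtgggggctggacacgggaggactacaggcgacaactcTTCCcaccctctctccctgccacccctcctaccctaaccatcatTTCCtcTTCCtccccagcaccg
The core occurs 5 times in the Kdr window, 4 times in Flt1, 2 times in Tek and 9 times in Tie1, against a median of 3 over all 32851 windows of this length, of which 95.98% hold at least 1. The longer form CCGGAA, which contains the core, is in 14.9% of all windows and among the members only in Kdr. CCACCCA, a core of the GLI consensus through which Hedgehog acts, is in 9.30% of all windows on either strand and in none of the 9 member windows available, which cover 8 of the 10 genes. ACGTG, the core of the hypoxia element, is in 19.6% of all windows and in 1 of the 2 Vegfa windows. A match is only a match of letters.

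Vegfa (chr17:46016993-46032369, minus strand) was made above all by AT1-like cells. Its level there was 706 CPM (673 to 741) in the 5E1 library and 559 CPM (524 to 595) in the IgG library. AT2-like cells, which make surfactant, followed with 118 CPM (108 to 128) in the 5E1 library and 67.7 CPM (60.7 to 75.3) in the IgG library. Endothelial-like cells had 41.3 CPM (37.7 to 45.2) in the 5E1 library and 34.8 CPM (31.4 to 38.6) in the IgG library. The first 2 levels are apart from each other and from the endothelial one in both libraries, whereas AT2-like cells overlap with cluster 14, a small cluster with 11 Vegfa UMIs in the 5E1 library and 48 in the IgG library. B cell-like cells, which should not make it, had 9.11 CPM in the 5E1 library and 15.3 CPM in the IgG library, a measure of free RNA.

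In AT1-like cells the level with 5E1 was 1.26 times that with IgG (1.17 to 1.37). After each cell was thinned to 1000 UMIs, 50.7% (45.9 to 55.5) of 428 5E1 cells and 42.8% (36.9 to 48.9) of 278 IgG cells had a Vegfa UMI, against 1.41% with 5E1 and 0.267% with IgG of B cell-like cells. Without thinning the shares were 86.2% with 5E1 and 83.3% with IgG. 5E1 cells with a Y-linked UMI had 720 CPM (668 to 774), and those with Xist and no Y-linked UMI 625 CPM (563 to 693), against 559 CPM in all IgG cells and 563 CPM (527 to 601) in IgG cells with Xist. Both kinds of 5E1 cells were therefore above the IgG value, the second by less, with intervals that overlap. The kinds are set by the UMIs found in a cell and so depend on depth. Median depth was 6635 UMIs in the first kind, 4286 in the second and 4919 in all IgG cells. The part of depth was not tested. Across all genes with at least 100 UMIs in AT1-like cells, 1.79% were at least 1.5-fold higher and 1.91% at least 1.5-fold lower with 5E1, and Vegfa, the 1 member counted there, was in neither group.

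In AT2-like cells Vegfa was 1.74 times as high with 5E1 (1.51 to 2.00), 1 of 3 members past 1.5-fold in a cluster where 3.16% of genes were that much higher and 4.1% that much lower. AT1 markers were also higher there, with a summed level of 4737 CPM in the 5E1 library and 3173 CPM in the IgG library over 11 genes. When cells of the cluster were put in tertiles of AT1 marker UMIs per 10000 UMIs, most Vegfa lay in the upper tertile. There it was at 220 CPM (200 to 240) in 217 5E1 cells and 161 CPM (142 to 182) in 184 IgG cells, a ratio of 1.36 (1.17 to 1.59). In the middle tertile it was at 14.9 CPM (8.97 to 23.3) in the 5E1 library and 26.5 CPM (19.1 to 35.8) in the IgG library, and in the lower tertile at 11.6 CPM (5.56 to 21.3) with 5E1 and 20.5 CPM (14.4 to 28.2) with IgG. The upper tertile held 42.8% of 5E1 and 26.4% of IgG cells of the cluster. With the tertiles weighted as in the IgG library the ratio was 1.18. The part of AT1 marker-rich cells in the difference was not tested.

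**Figure D1:**
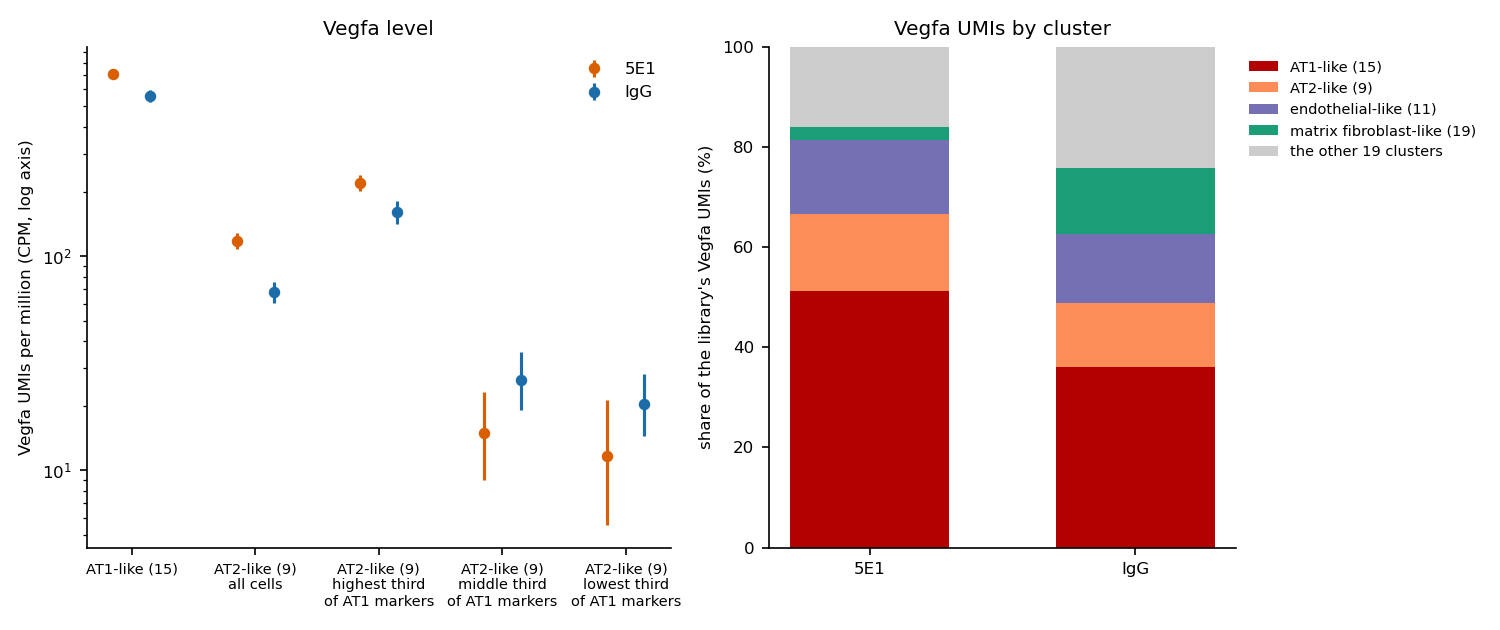
Left, Vegfa in CPM (log axis) in AT1-like and AT2-like cells and in tertiles of AT1 marker share within AT2-like cells, 5E1 orange and IgG blue, with 95% counting intervals. Right, share of each library's Vegfa UMIs by cluster; AT1-like cells supply 51.3% in the 5E1 library and 36.2% in the IgG library.

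Over all cells Vegfa was at 56.0 CPM in the 5E1 library and 34.2 CPM in the IgG library, a ratio of 1.64 (1.55 to 1.72). AT1-like cells supplied 51.3% (49.6 to 53.0) of Vegfa UMIs in the 5E1 library and 36.2% (34.3 to 38.0) in the IgG library, while matrix fibroblast-like cluster 19, with 551 cells in the 5E1 library and 1854 in the IgG library, supplied 2.46% with 5E1 and 13.1% with IgG. With cluster shares set to those of the IgG library the ratio was 1.22, and with IgG levels at the cluster shares of the 5E1 library it was 1.30. In cluster 19 itself, Vegfa was at 32.8 CPM in the 5E1 library and 37.5 CPM in the IgG library, a ratio of 0.875 whose interval holds 1 (0.679 to 1.12). That ratio was 0.553 for 5E1 cells with Xist and no Y-linked UMI and 1.14 for those with a Y-linked UMI. The same arithmetic left Tek at 1.40 of its whole-library 1.94, Tie1 at 1.18 of 1.69 and Flt1 at 1.11 of 1.56, and put Kdr at 0.933, against a whole-library 1.28, and Flt4 at 0.9398, against 1.32. Endothelial-like cells were 13.9% of 5E1 and 9.57% of IgG cells.

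Vegfb (chr19:6982473-6987651, minus strand), a ligand of VEGFR1, was spread thinly. It passed the rule for a ratio (at least 50 UMIs, and 5% of its highest level) in 17 of 23 clusters. Its level was highest in smooth muscle-like cluster 16, at 58.1 CPM (38.0 to 85.1) with 5E1 and 42.6 CPM (32.7 to 54.4) with IgG. That cluster held 84 cells in the 5E1 library. Among clusters of at least 100 cells per library the AT2-like one led, with 38.2 CPM (32.6 to 44.5) in the 5E1 library and 35.9 CPM (30.9 to 41.6) in the IgG library. These intervals overlap those of cluster 16. Of the 17 ratio intervals, 16 held 1. The exception was alveolar myofibroblast-like cluster 21, with 25.9 CPM in the 5E1 library and 17.1 CPM in the IgG library, a ratio of 1.51 (1.03 to 2.19). In 1 draw of cells thinned to 1000 UMIs the AT2-like ratio was 0.663, against 1.06 for all UMIs. That draw rests on few counts, with a Vegfb UMI in 15 of 507 5E1 cells and 30 of 695 IgG cells. Vegfc (chr8:54077606-54187096, plus strand), the lymphatic growth factor, was led by endothelial-like cells, at 53.7 CPM (49.6 to 58.1) in the 5E1 library and 44.4 CPM (40.5 to 48.6) in the IgG library, a ratio of 1.21 (1.07 to 1.37). Adventitial fibroblast-like cells came next, at 17.7 CPM with 5E1 and 12.9 CPM with IgG, with an interval of the ratio that holds 1 (0.924 to 2.01). The endothelial-like ratio of Vegfc depended on the cells taken, at 1.69 for 5E1 cells with Xist and no Y-linked UMI and 1.09 for those with a Y-linked UMI. It was 0.720, the other side of 1, in 1 draw of cells thinned to 1000 UMIs, and 1.12 as the expected value over draws.

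**Figure D2:**
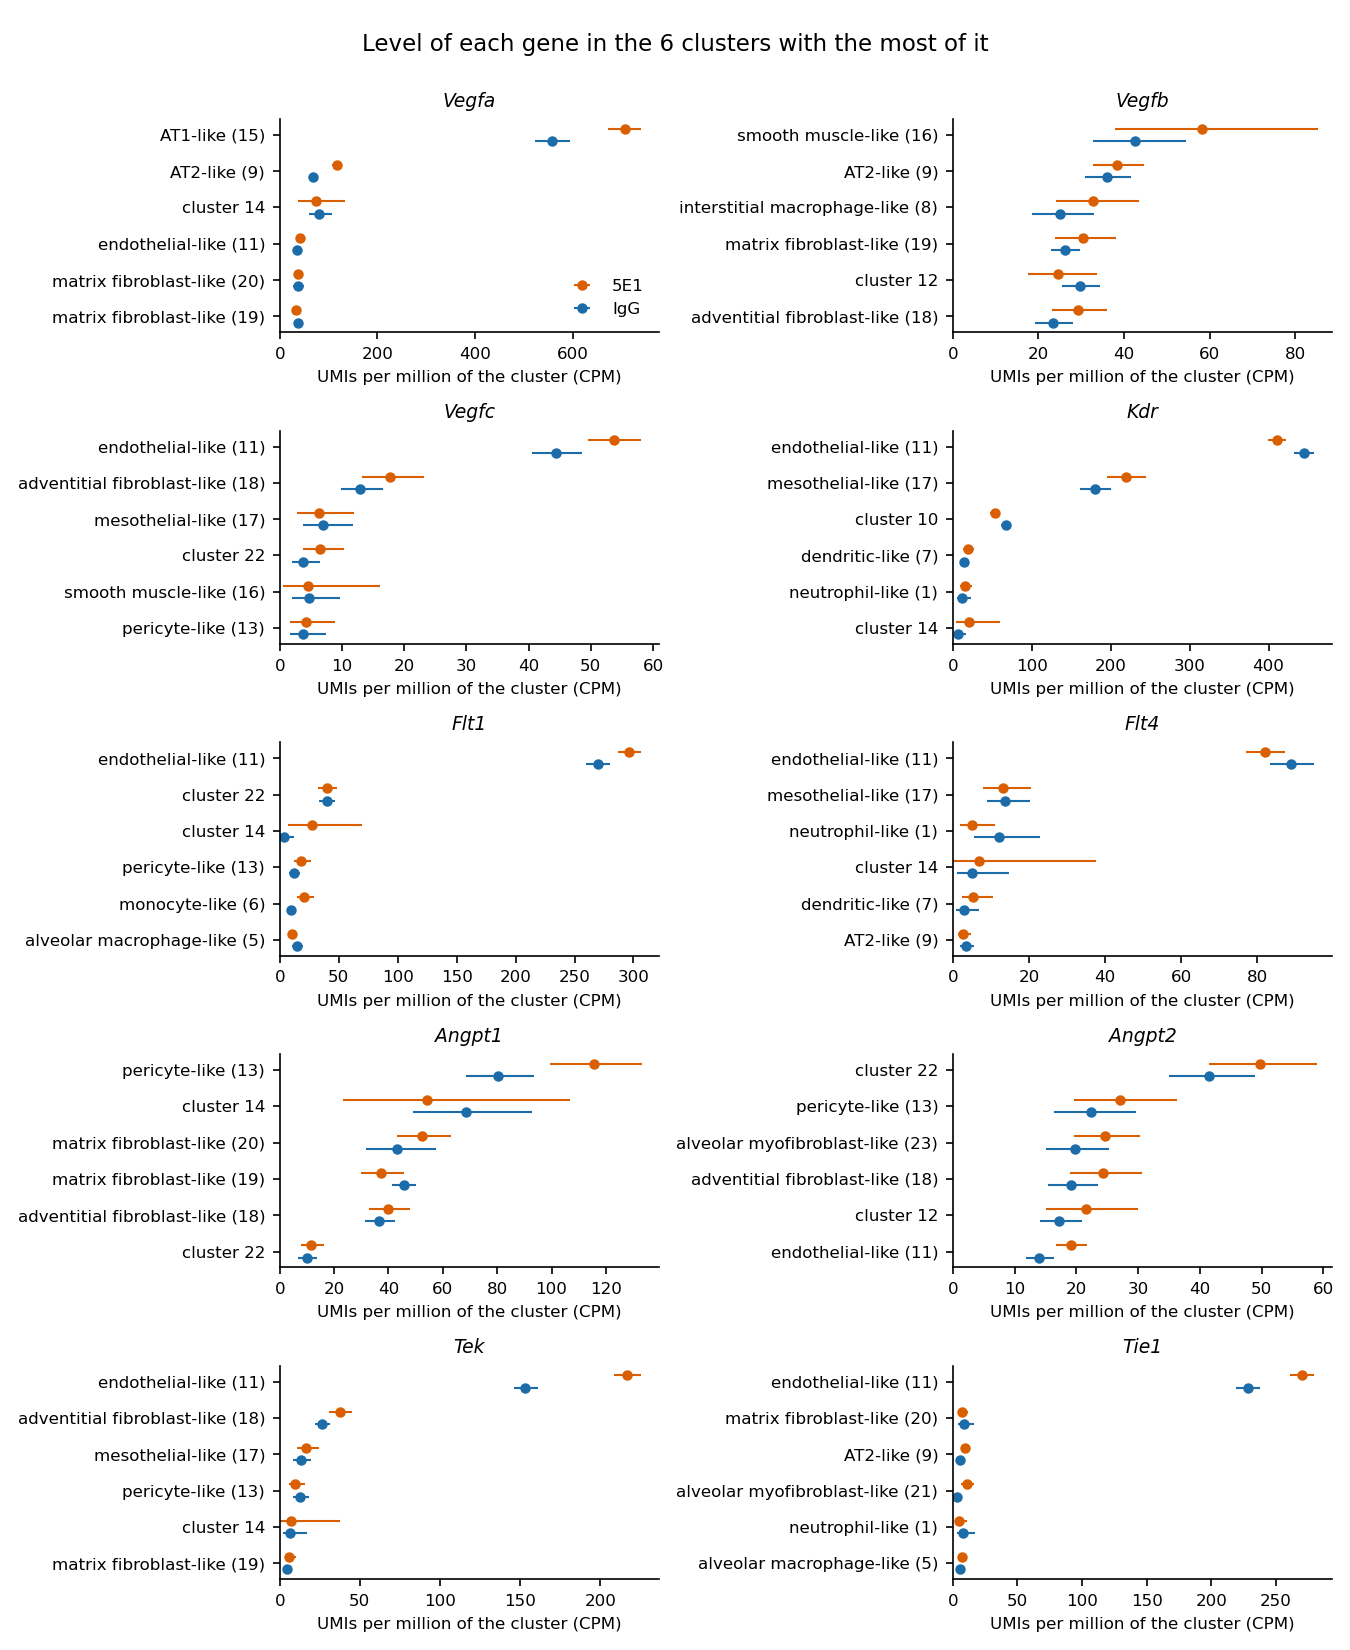
CPM in the 6 clusters with most of each gene, 5E1 orange and IgG blue, with 95% counting intervals. Kdr, Flt1, Flt4, Tek, Tie1 and Vegfc lead in endothelial-like cells, Vegfa in AT1-like and Angpt1 in pericyte-like cells; Vegfb is spread over many clusters.

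Kdr (chr5:75932827-75978458, minus strand) was highest in endothelial-like cells, with 411 CPM (399 to 422) in the 5E1 library and 445 CPM (432 to 458) in the IgG library. The ratio was 0.924 (0.887 to 0.962). Flt1 (chr5:147561604-147726011, minus strand) was at 296 CPM (287 to 306) in the 5E1 library and 270 CPM (260 to 280) in the IgG library, a ratio of 1.10 (1.05 to 1.16). Both differences are small, and neither kept its side of 1 in every choice of cells. Kdr was at 445 CPM in 5E1 cells with a Y-linked UMI and 337 CPM in those with Xist and none, against 445 CPM in all IgG cells, and Flt1 was at 310 CPM in the first and 269 CPM in the second kind of 5E1 cells, against 270 CPM in all IgG cells. Thus the difference between cells of the 2 kinds within the 5E1 library was as large as that between the libraries. The kinds also differ in depth. The median was 9963 UMIs in endothelial-like 5E1 cells with a Y-linked UMI and 5523.5 in those with Xist and none. It was 2708 in 5E1 cells with neither and 4445 in all IgG cells. The part of depth in these differences was not tested.

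Tek (chr4:94739289-94874976, plus strand), the angiopoietin receptor, was the member with the largest difference in endothelial-like cells when all cells were taken. With 5E1 cells that had Xist and no Y-linked UMI, Vegfc, Flt4, Kdr and Angpt1 differed more. Angpt1 was there at 1.61 CPM, from 5 UMIs, against 4.31 CPM in all IgG cells. Over all cells of the cluster Tek was at 217 CPM (208 to 225) in the 5E1 library and 153 CPM (146 to 161) in the IgG library. The ratio was 1.41 (1.33 to 1.51). After thinning, 19.2% (17.02 to 21.5) of 5E1 cells and 13.4% (11.51 to 15.4) of IgG cells had a Tek UMI, against 59.4% with 5E1 and 48.6% with IgG where cells were not thinned, and 0.469% with 5E1 and 0% with IgG of thinned B cell-like cells (by the limit of 3 counts, 0 of 375 allows a share of up to 0.800%). The 5E1 cells with a Y-linked UMI had 230 CPM (219 to 241) and those with Xist and none 188 CPM (173 to 204), both above the 153 CPM of the IgG cells. Tie1 (chr4:118471191-118490061, minus strand) was at 270 CPM (261 to 280) in the 5E1 library and 228 CPM (219 to 238) in the IgG library, a ratio of 1.18 (1.12 to 1.25), and was at 284 CPM in 5E1 cells with a Y-linked UMI and 245 CPM in those with Xist and none. Over all genes counted in endothelial-like cells, 1.56% of 10236 genes were at least 1.5-fold higher and 2.92% at least 1.5-fold lower, and 0 of 9 members counted were in either group. The median log2 ratio of those 9 members was 0.24, against 0.01 over all counted genes. With 5E1 cells that had Xist and no Y-linked UMI, the ratios of Kdr, Flt1, Flt4, Vegfa and Angpt2 were not above 1. A median above 0 was therefore not kept under that choice of cells.

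**Figure D3:**
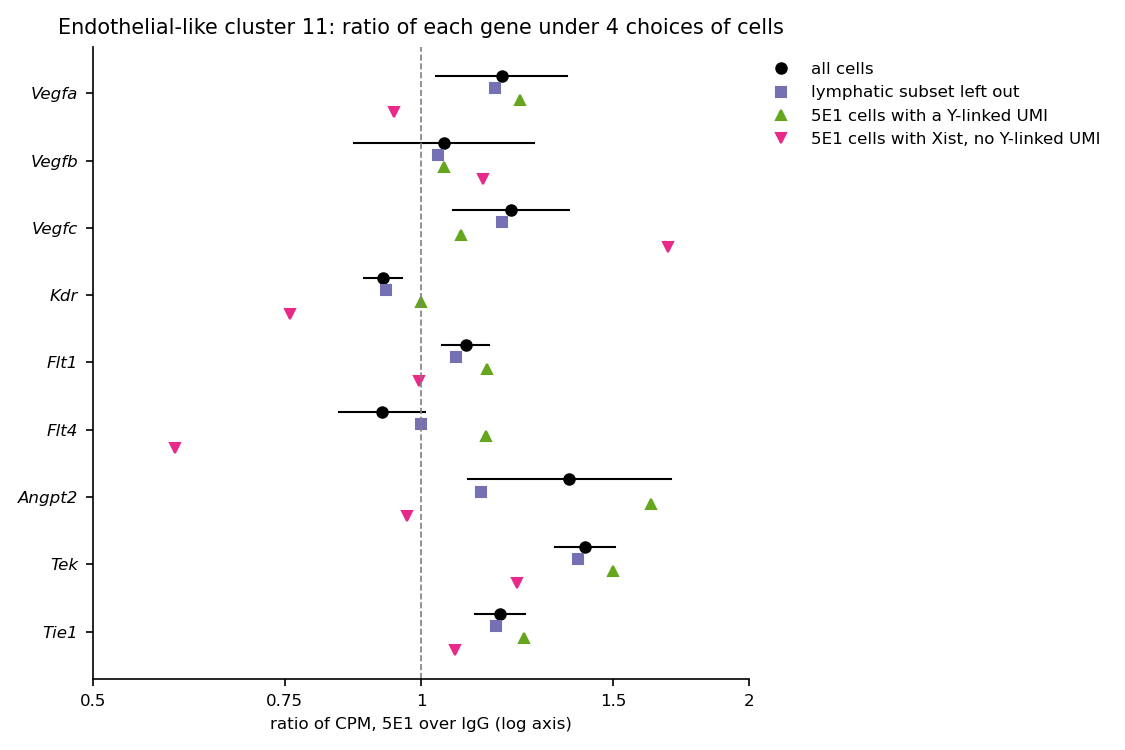
Ratio of each gene but Angpt1 in endothelial-like cluster 11, 5E1 over IgG on a log axis, for all cells (black, with 95% counting interval), without the lymphatic-like subset, and with the 5E1 cells restricted by sex-linked UMIs. Tek, Tie1, Vegfb and Vegfc stay above 1 under all 4 choices, Vegfb with an interval that holds 1, while Kdr, Flt1, Flt4, Angpt2 and Vegfa do not keep 1 side.

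Endothelial-like cells were divided by markers to see where these levels sit. The first division, at least 2 marker UMIs per cell, did not work: it called 65.8% of 5E1 and 58.2% of IgG cells lymphatic, because Lyve1 had a UMI in 76.4% with 5E1 and 70.8% with IgG of all cells of the cluster, and these cells had medians of 7864 UMIs with 5E1 and 8092 UMIs with IgG. A second division, chosen after these marker values were seen, used marker UMIs per 10000 UMIs of the cell. Lymphatic-like cells had at least 5 over Prox1, Mmrn1 and Reln. Of the rest, Car4-high cells, the capillary cells that spread over AT1 cells, had at least 8 over Car4, Ednrb, Fibin, Tbx2 and Apln, and arterial-like cells at least 2 over Gja5, Bmx and Dkk2. The lymphatic-like subset held 57 cells (4.34%; 3.30 to 5.58) of the 5E1 cluster and 86 (6.65%; 5.35 to 8.15) of the IgG cluster, with Prox1 at 478 CPM with 5E1 and 437 CPM with IgG there and at most 1.48 CPM with 5E1 and 1.65 CPM with IgG in the other subsets. Car4-high cells were 302 (22.98%) of the 5E1 cluster and 297 (22.97%) of the IgG cluster, arterial-like cells were 133 (10.1%) of the 5E1 and 99 (7.66%) of the IgG cluster, and other blood endothelial cells 822 and 811 of the same. Arterial-like cells had medians of 7310 UMIs with 5E1 and 4053 UMIs with IgG. Cluster levels weigh cells by their UMIs, so the shares of cells do not give the weight of this subset. A shallow cell can pass the arterial limit with 1 marker UMI. Subsets are ranges of marker UMIs, and 7, 234 and 60 5E1 cells and 14, 221 and 59 IgG cells lay between 0.5 and 2 times the lymphatic, Car4 and arterial limits. The median cell of each subset was at 0 to 1.13 UMIs per 10000 for the markers of the other subsets.

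Tek was higher with 5E1 in each of the 4 subsets, by ratios of 1.33 to 1.45. In arterial-like cells, where it was highest, it was at 346 CPM (315 to 379) in the 5E1 library and 245 CPM (209 to 286) in the IgG library. In other blood cells it was at 225 CPM with 5E1 and 169 CPM with IgG, a ratio of 1.33 (1.23 to 1.44), and in Car4-high cells at 170 CPM with 5E1 and 122 CPM with IgG, a ratio of 1.39 (1.20 to 1.62). In lymphatic-like cells, at 79.4 CPM with 5E1 and 54.7 CPM with IgG, the interval of the ratio held 1 (0.979 to 2.17). Tie1 had ratios of 1.06 to 1.35, with the Car4-high (0.9498 to 1.19) and arterial-like (0.984 to 1.41) intervals holding 1. With the subsets weighted as in the IgG cluster, the ratio of Tek was 1.35 and that of Tie1 1.18.

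Kdr was highest in Car4-high cells, at 789 CPM (756 to 823) in the 5E1 library and 850 CPM (814 to 887) in the IgG library, and lowest in arterial-like cells. There it was at 185 CPM (163 to 210) in 133 5E1 cells and 97.5 CPM (75.4 to 124) in 99 IgG cells, opposite in direction to the whole cluster. That opposite direction was not kept under the first division, with ratios of 0.704 and 0.736. Flt1 was nearly absent from lymphatic-like cells, at 6.51 CPM with 5E1 and 5.70 CPM with IgG (5 UMIs in each library), and was at 415 CPM in arterial-like 5E1 cells and 324 CPM in arterial-like IgG cells, a ratio of 1.28 (1.10 to 1.51). In Car4-high cells it was at 392 CPM with 5E1 and 389 CPM with IgG. Vegfa within the cluster was highest in arterial-like cells, at 104 CPM (87.3 to 122) in the 5E1 library and 93.1 CPM (71.6 to 119) in the IgG library. Vegfc was highest in other blood cells, at 68.2 CPM with 5E1 and 56.6 CPM with IgG, and had 2 UMIs in lymphatic-like cells of each library.

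Flt4 (chr11:49609263-49652739, plus strand), the VEGF-C receptor, was highest in the lymphatic-like subset and lower but present in blood endothelial cells. It was at 682 CPM (625 to 743) in the 5E1 library and 621 CPM (570 to 675) in the IgG library there, against 33.5 CPM with 5E1 and 36.2 CPM with IgG in other blood cells and 66.7 CPM with 5E1 and 58.1 CPM with IgG in Car4-high cells. In the whole cluster it was at 82.0 CPM (76.9 to 87.4) in the 5E1 library and 89.0 CPM (83.4 to 94.9) in the IgG library, a ratio of 0.922 (0.841 to 1.01). Without lymphatic-like cells the ratio was 0.999, and with the subset shares of the IgG cluster 1.07. It was 0.595 with the 5E1 cells that had Xist and no Y-linked UMI, and 1.13 without cells of mixed lineage. The share of lymphatic-like cells was 6.28% of 5E1 cells with a Y-linked UMI and 2.91% of those with Xist and none, against 7.25% of IgG cells with Xist and none. Lymphatic-like cells were deep, with medians of 10456 UMIs with 5E1 and 7468 with IgG, against 4739.5 and 4546 in other blood cells. The 5E1 cells with a Y-linked UMI were also deeper than those with Xist and none. The part of depth in these shares and in the Flt4 ratios was not tested.

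**Figure D4:**
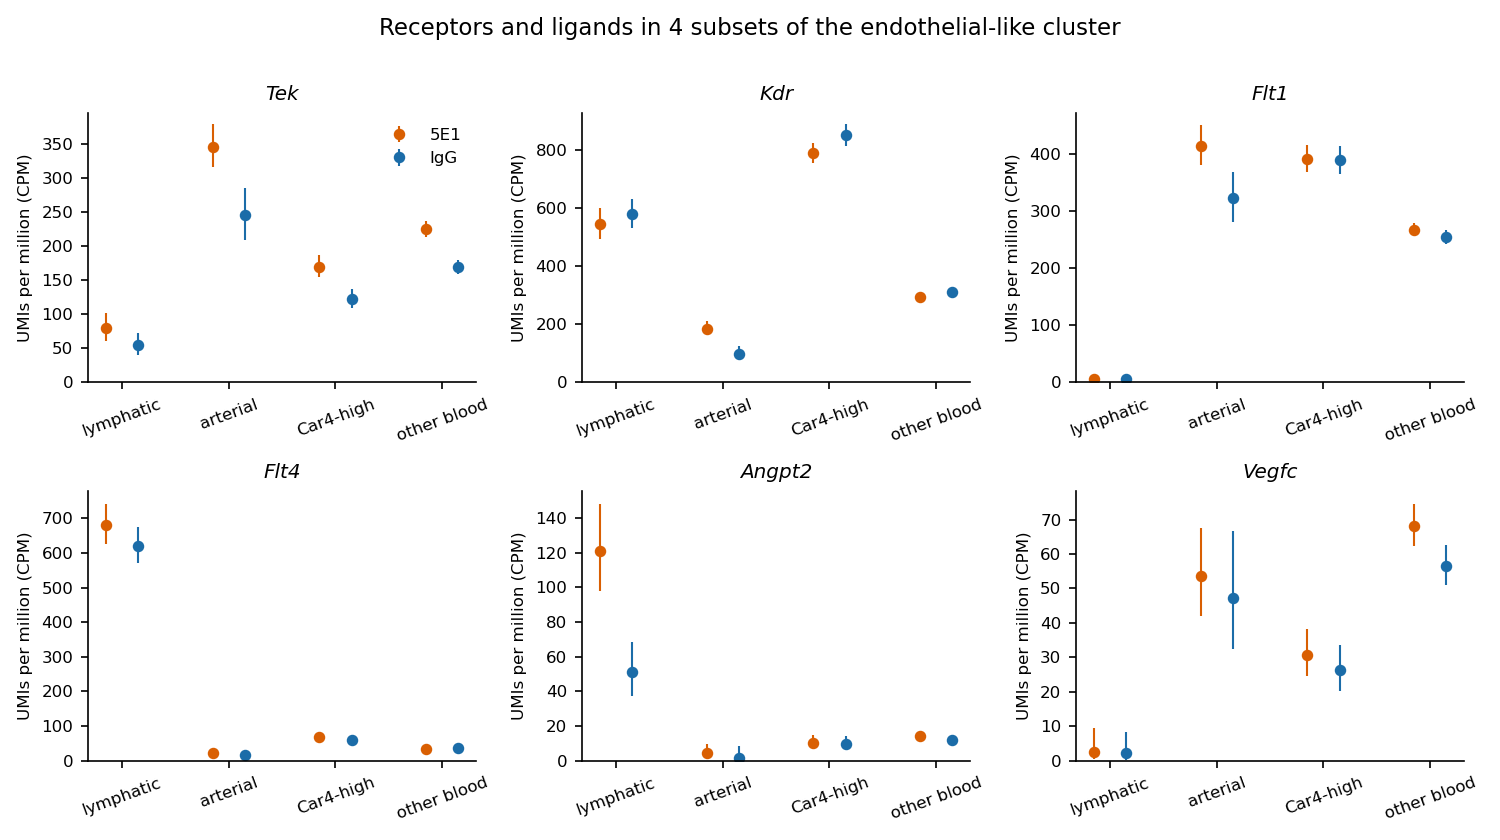
CPM in the lymphatic-like, arterial-like, Car4-high and other blood subsets of cluster 11, 5E1 orange and IgG blue, with 95% counting intervals. Tek is higher with 5E1 in each subset, Flt4 and Angpt2 are highest in the lymphatic-like one, and Kdr is highest in the Car4-high one.

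Angpt1 (chr15:42424723-42676977, minus strand) was led by pericyte-like cells. It was at 115 CPM (99.5 to 133) in the 5E1 library and 80.3 CPM (68.7 to 93.4) in the IgG library, a ratio of 1.44 (1.16 to 1.78). The 5E1 cells with a Y-linked UMI had 106 CPM (81.7 to 135), those with Xist and none 104 CPM (74.7 to 141) and those with neither 131 CPM (105 to 163), each above the IgG value and the first 2 with intervals that reach into the IgG interval. After thinning, 10.9% (7.74 to 14.9) of 5E1 cells and 9.76% (7.10 to 13.01) of IgG cells had an Angpt1 UMI, a difference not detectable at this depth; without thinning the shares were 37.3% with 5E1 and 30.3% with IgG. In pericyte-like cells 2.28% of genes were at least 1.5-fold higher and 2.47% at least 1.5-fold lower, and Angpt1, the 1 member counted, was in neither group. Cluster 14, of 67 cells in the 5E1 library and 256 in the IgG library, overlapped the pericyte-like level, and matrix fibroblast-like cluster 20 was below it in both libraries, at 52.4 CPM with 5E1 and 43.3 CPM with IgG. In alveolar myofibroblast-like cluster 23 Angpt1 was at 13.3 CPM (47 UMIs) in the 5E1 library and 5.50 CPM (17 UMIs) in the IgG library, a ratio of 2.42 (1.36 to 4.49), and 1.42 for 5E1 cells with Xist and no Y-linked UMI. In matrix fibroblast-like cluster 19, at 37.2 CPM with 5E1 and 45.6 CPM with IgG, the interval of the ratio held 1 (0.645 to 1.03). Over all cells Angpt1 was lower, at 11.9 CPM in the 5E1 library and 14.8 CPM in the IgG library (ratio 0.806), and with the cluster shares of the IgG library the ratio was 0.985.

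Angpt2 (chr8:18690263-18741562, minus strand), the ligand that can oppose angiopoietin 1, was highest in cluster 22, a stromal cluster led by Wisp2, Map3k7cl and Timp4. It was at 49.7 CPM (41.5 to 59.0) in the 5E1 library and 41.5 CPM (35.0 to 49.0) in the IgG library, a ratio of 1.20 that holds 1 (0.936 to 1.53). The next clusters, pericyte-like, alveolar myofibroblast-like 23, adventitial fibroblast-like and 12, lay between 21.6 and 27.02 CPM in the 5E1 library and between 17.3 and 22.3 CPM in the IgG library, with intervals that overlap. In cluster 22, 1.57% of genes were at least 1.5-fold higher and 1.97% at least 1.5-fold lower, with 0 of 3 members among them. In endothelial-like cells Angpt2 was at 19.1 CPM (225 UMIs) in the 5E1 library and 13.97 CPM (146 UMIs) in the IgG library, a ratio of 1.37 (1.10 to 1.69). The ratio lay below 1 for 5E1 cells with Xist and no Y-linked UMI (0.970), with both libraries restricted to such cells (0.953) and in 1 draw of cells thinned to 1000 UMIs (0.971), with 1.19 as the expected value over draws. Its subset ratio was highest, among subsets with at least 10 UMIs in each library, in lymphatic-like cells (2.36; 1.64 to 3.45), at 121 CPM (97.7 to 148) in the 5E1 library and 51.3 CPM (37.4 to 68.6) in the IgG library. It was carried by few cells: 23 of 57 5E1 cells and 21 of 86 IgG cells had a UMI, and 1 cell held 30 of the 93 UMIs in the 5E1 library, while the most in 1 IgG cell was 10 of 45. Without the lymphatic-like subset the ratio in the cluster was 1.14. In matrix fibroblast-like cluster 19 Angpt2 was at 2.83 CPM (7 UMIs) in the 5E1 library and 7.15 CPM (66 UMIs) in the IgG library, against 1.92 CPM (0.522 to 4.91) with 5E1 and 0.729 CPM (0.0184 to 4.06) with IgG in B cell-like cells, so the 5E1 interval overlaps that of B cell-like cells and the IgG interval does not. The ratio was 0.397, and over the alternatives run it lay between 0.143 after subtraction of the B cell-like level and 0.504 for 5E1 cells with Xist and no Y-linked UMI. In cluster 19, 4.94% of genes were at least 1.5-fold higher and 8.55% at least 1.5-fold lower; 0 of the 3 members with enough UMIs there were past it.

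Some receptors were also found outside endothelial-like cells. In mesothelial-like cluster 17, the cells that cover the lung, Kdr was at 220 CPM (196 to 245) in the 5E1 library and 180 CPM (162 to 200) in the IgG library, 53.5% with 5E1 and 40.5% with IgG of the endothelial-like level. Flt1 and Tie1 were at 0.938% and 1.03% of theirs in the 5E1 library and at 1.18% and 1.63% in the IgG library, near the median of 15 endothelial markers, 1.36% in the 5E1 library and 1.44% in the IgG library. Flt4 in the same cells was at 16.1% with 5E1 and 15.5% with IgG, from 19 UMIs with 5E1 and 26 UMIs with IgG, and Tek at 7.69% with 5E1 and 8.67% with IgG. The mesothelial-like ratio of Kdr was 1.22 (1.04 to 1.42). In cluster 10, which is led by club and ciliated airway markers together, Kdr was at 52.9 CPM (46.8 to 59.7) in the 5E1 library and 66.9 CPM (60.6 to 73.8) in the IgG library, a ratio of 0.791 (0.675 to 0.925). In 1 draw of cells thinned to 1000 UMIs that ratio turned to 1.28, and the expected value over draws was 0.748. Cells without a UMI of Pecam1, Cdh5 or Cldn5 kept 36.1 CPM (138 of 250 cells) in the 5E1 library and 63.0 CPM (196 of 341 cells) in the IgG library, where B cell-like cells had 7.19 CPM with 5E1 and 10.2 CPM with IgG.

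**Figure D5:**
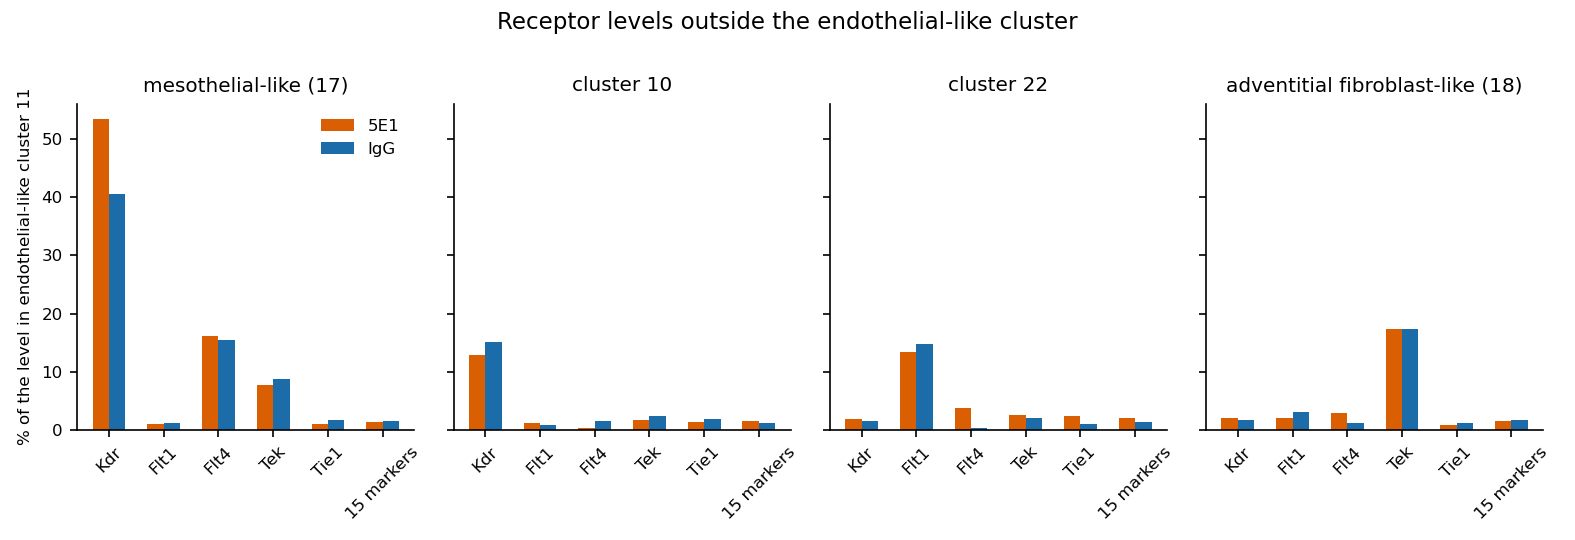
Level of 5 receptors and the median of 15 endothelial markers in 4 clusters as a percentage of the level in endothelial-like cluster 11, 5E1 orange and IgG blue. Kdr stands out in mesothelial-like cells and cluster 10, Flt1 in cluster 22 and Tek in adventitial fibroblast-like cells. Each of these lies above the highest of the 15 markers in its cluster, which is not drawn.

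Flt1 was at 39.8 CPM in cluster 22 in each library, 13.4% of the endothelial-like level with 5E1 and 14.8% with IgG, with Kdr there at 1.77% with 5E1 and 1.58% with IgG. Tek was at 37.5 CPM (30.7 to 45.2) in adventitial fibroblast-like cells of the 5E1 library and 26.5 CPM (22.1 to 31.6) in those of the IgG library, a ratio of 1.41 (1.08 to 1.84). The 5E1 cells with a Y-linked UMI had 30.6 CPM (20.8 to 43.5), with an interval that overlaps the IgG one. Those with Xist and none had 47.0 CPM (35.0 to 61.8). After thinning, 2.58% (1.34 to 4.45) of 5E1 and 2.14% (1.30 to 3.33) of IgG cells had a Tek UMI, with intervals that overlap. Tek was at 34.9 CPM with 5E1 and 25.6 CPM with IgG in the cells of that cluster without a UMI of Pecam1, Cdh5 or Cldn5, and Tie1 was at 0.899% with 5E1 and 1.10% with IgG of its endothelial-like level. Flt1 in monocyte-like cells was at 21.02 CPM (35 UMIs) in the 5E1 library and 9.18 CPM (38 UMIs) in the IgG library, a ratio of 2.29 (1.40 to 3.72), and 1.06 for 5E1 cells with Xist and no Y-linked UMI. In B cell-like cells Flt1 was at 9.11 CPM with 5E1 and 5.10 CPM with IgG. The monocyte-like and B cell-like intervals overlap in the IgG library, so the IgG level was not separated from free RNA. In the 5E1 library they do not overlap. The part of sex-linked differences between the pools in the ratio of 2.29 was not tested.

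The other genes of the pathway were read in endothelial-like cells, where 1.56% of all counted genes were at least 1.5-fold higher and 2.92% at least 1.5-fold lower. Of 4 VEGF ligands and co-receptors counted, 0 were at least 1.5-fold higher and 1 was lower, the VEGF-D gene, listed as Figf. Figf was at 6.62 CPM in the 5E1 library and 20.3 CPM in the IgG library, but also at 3.36 CPM with 5E1 and 18.2 CPM with IgG in B cell-like cells, so the cluster level is close to that of free RNA. Nrp2, the co-receptor of VEGFR3, was at 97.7 CPM in the 5E1 library and 137 CPM in the IgG library over the cluster, and at 1126 CPM with 5E1 and 1263 CPM with IgG in lymphatic-like cells. Of 2 TIE modulators counted, 0 passed in either direction. Ptprb, the phosphatase that switches TIE2 off, was at 453 CPM in the 5E1 library and 332 CPM in the IgG library, a ratio of 1.36 (1.31 to 1.42).

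Of 11 VEGF response and sprouting genes counted, 3 were higher and 1 lower, against 1.56% higher and 2.92% lower over all counted genes. Esm1, a marker of endothelium under VEGF, was at 41.6 CPM in the 5E1 library and 20.5 CPM in the IgG library, a ratio of 2.03 (1.72 to 2.39). In arterial-like cells it was at 177 CPM with 5E1 and 93.1 CPM with IgG, and in other blood cells at 28.6 CPM with 5E1 and 18.9 CPM with IgG. Kcne3, a potassium channel subunit, was at 19.2 CPM with 5E1 and 10.3 CPM with IgG (ratio 1.85; 1.47 to 2.35), with 147 CPM with 5E1 and 114 CPM with IgG in arterial-like cells, which held 200 of its 226 UMIs with 5E1 and 77 of 108 with IgG. Nos3, the endothelial nitric oxide synthase, was at 55.8 CPM in the 5E1 library and 36.5 CPM in the IgG library, a ratio of 1.53 (1.35 to 1.74). Rgcc, a cell cycle regulator that VEGF is known to induce, was at 177 CPM in the 5E1 library and 271 CPM in the IgG library, a ratio of 0.653 (0.617 to 0.692), and was lower in other blood (221 CPM with 5E1 and 336 CPM with IgG) and Car4-high cells (180 CPM with 5E1 and 257 CPM with IgG). The median log2 ratio of the 11 genes was 0.21, against 0.01 for all counted genes. These ratios take all cells of the cluster. The part of sex-linked differences between the pools or of subset make-up in them was not tested.

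The genes most like each member over the 46 cluster-by-library profiles were found by Pearson correlation of log2(CPM + 1) among 10597 genes, as a description of profiles that share libraries, depth and free RNA. Tie1 was closest to Cdh5 (0.88), the cadherin of endothelial junctions, Flt1 to Clec1a (0.79), Kdr to C130074G19Rik (0.80) and Slco2a1 (0.80), and Flt4 to Unc45b (0.75). Tek was closest to Fmo1 (0.83) and then to Vegfc (0.82); both Tek and Vegfc had endothelial-like and then adventitial fibroblast-like cells as their highest clusters. Angpt1 was closest to Ednra (0.92), the endothelin receptor of mural cells, Angpt2 to Rhoj (0.83), Vegfa to Wipf3 (0.86) and Vegfb to Arl2 (0.84). Among the members Kdr and Flt4 stood at 0.67, Flt1 and Tie1 at 0.67, Tek and Tie1 at 0.58, and Vegfa had no member above 0.15.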

How the data were processed

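The authors deposited unnormalized UMI counts for each gene in each barcode. The submitters' processing notes name Cell Ranger 3.1.1 and mm10. The authors' deposited table of annotated cells gave the library and cluster of each cell; its header is shifted by 1 column, so both columns were identified from their values. How reads were aligned and cells called is not given in the sources used here. No doublet caller was run; cells with at least 2 UMIs of markers of 2 lineages were left out as an alternative. Here the counts were summed per library and cluster and scaled to CPM with Python 3.11.15, numpy 2.4.6 and scipy 1.17.1. Sums have exact Poisson, ratios exact conditional binomial and shares exact Clopper-Pearson 95% intervals, all for counting error only, since cells are not replicates. Genes with at least 100 UMIs over both libraries in a cluster were counted past 1.5-fold. Ratios are given for clusters with at least 50 UMIs and at least 5% of the gene's highest level. Ratio code was checked on simulated counts. Members, lists, markers and limits were chosen with earlier results of these data known. Named genes are the 10 members, pathway genes past 1.5-fold and the 3 most similar genes; Nrp2, Ptprb, Epas1, Foxo1, Pgf and marker genes were added after their values were seen. Positions are from GENCODE vM21 on GRCm38, which is mm10.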

Additional observations from a re-analysis of the deposited data

Results flagged for a closer look

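Kdr differed between the libraries in opposite directions in 2 clusters outside the endothelial-like one: the ratio of 5E1 to IgG was 1.22 in mesothelial-like cluster 17 and 0.791 in airway cluster 10, where it turned to 1.28 in 1 draw of cells thinned to 1000 UMIs. Angpt2 did so in endothelial-like cluster 11, with a ratio of 1.37 that turned to 0.970 for 5E1 cells with Xist and no Y-linked UMI, 0.953 with both libraries restricted alike and 0.971 in 1 draw of thinned cells, and matrix fibroblast-like cluster 19, with a ratio of 0.397 that rests on 7 UMIs in the 5E1 library and 66 in the IgG library. In both cases the counting intervals over all cells lie on opposite sides of 1, and the difference between clusters was not tested.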

How the results depend on the processing

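No paired analysis was possible because each condition is 1 library. With 5E1 cells that had Xist and no Y-linked UMI, the ratios became 1.12 for Vegfa in AT1-like cells and, in endothelial-like cells, 1.69 for Vegfc, 0.758 for Kdr, 0.997 for Flt1, 0.595 for Flt4, 1.23 for Tek, 1.07 for Tie1, 0.945 for Vegfa and 0.970 for Angpt2. With both libraries restricted alike, they were 1.11, 1.67, 0.762, 0.993, 0.587, 1.21, 1.07, 0.962 and 0.953. With 5E1 cells that had a Y-linked UMI, Kdr was at 1.001 and Flt4 at 1.15. In endothelial-like and AT1-like cells these kinds of 5E1 cells also differ in depth. Thinning to 1000 UMIs, in 1 draw, gave 0.663 for Vegfb in AT2-like cells, 0.720 for Vegfc, 1.04 for Flt1, 1.51 for Tek and 0.971 for Angpt2 in endothelial-like cells, and 1.28 for Kdr in cluster 10; the expected value over draws was 0.880 for Kdr and 1.12 for Vegfc. Flt4 was at 1.13 without cells of mixed lineage and 1.07 with the subset shares of the IgG cluster, and Vegfb in AT2-like cells was at 0.856 after subtraction of the B cell-like level. Under the first division of endothelial-like cells, Vegfc in other blood cells was at 0.812 and 0.983 and Kdr in arterial-like cells at 0.704 and 0.736, for at least 2 and at least 3 marker UMIs. As a mean of single cells the whole-library ratios were 1.83 for Vegfa and 1.59 for Tie1. Of 10236 genes in endothelial-like cells, 160 were past 1.5-fold higher and 299 lower; past 2-fold they were 28 and 93, and with at least 20 UMIs 482 and 753. In AT1-like cells 87 and 93 became 9 and 23, and 522 and 693. Tek in endothelial-like cells stayed above 1 under every alternative run. Median-ratio scaling changed no call; it shifted levels by less than 0.1 (log2) in every cluster but cluster 1 (-0.13). The limits per 10000 UMIs, the choices by Y-linked UMIs or in both libraries, the expected thinning and the tertiles were chosen after seeing the data. Cause was not tested for any of these. With 1 library per condition, intervals hold no variation between pups, and members with few UMIs, such as Angpt2 in cluster 19, are limited by depth.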

Other observations

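Rgcc, which VEGF is known to induce in endothelium, went the other way in the alveolar epithelium. It was at 658 CPM in the 5E1 library and 442 CPM in the IgG library in AT1-like cells, a ratio of 1.49 (1.36 to 1.62), and at 210 CPM with 5E1 and 88.9 CPM with IgG in AT2-like cells, a ratio of 2.36 (2.11 to 2.65), against 0.653 in endothelial-like cells. The summed level of 11 AT1 markers in AT2-like cells was also higher, at 4737 CPM with 5E1 and 3173 CPM with IgG; its part in the Rgcc ratio was not tested. Among the hypoxia regulators, 0 of 5 counted in endothelial-like cells were past 1.5-fold in either direction, against 1.56% of all counted genes higher and 2.92% lower. Epas1, the hypoxia factor known for its level in lung endothelium, was at 866 CPM in the 5E1 library and 663 CPM in the IgG library there, a ratio of 1.31 (1.27 to 1.35). In arterial-like cells Epas1 was at 1051 CPM with 5E1 and 668 CPM with IgG. Foxo1, a target of TIE2 signalling, was at 95.95 CPM in the 5E1 library and 74.6 CPM in the IgG library in endothelial-like cells, a ratio of 1.29 (1.17 to 1.41), and at 80.1 CPM with 5E1 and 99.8 CPM with IgG in B cell-like cells. In AT1-like cells Foxo1 was at 16.7 CPM with 5E1 and 9.91 CPM with IgG, and in pericyte-like cells at 17.8 and 15.7 CPM. For this gene the B cell-like value is therefore not a measure of free RNA. Pgf, the placental growth factor gene, was within the cluster highest in lymphatic-like cells, at 103 CPM in the 5E1 library and 132 CPM in the IgG library.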
